A study of Drosophila melanogaster with 10 samples.

Results

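The oxidative phosphorylation genes of developing T4 and T5 neurons were taken from the gene list of the deposited count tables by their symbols: names starting ND-, UQCR-, ATPsyn or COX and a digit, and the mitochondrially encoded genes with names starting mt:ND, mt:Co, mt:Cyt or mt:ATPase. This gave 87 of 17757 listed genes, 74 of them encoded in the nucleus and 13 in the mitochondrial genome. Of the nuclear members, 40 belong to complex I, 8 to complex III, 11 to complex IV and 15 to complex V, and of the mt: members 7, 1, 3 and 2 belong to these complexes in the same order. T4 and T5 are the direction-selective motion-sensing neurons of the fly visual system, and each comes in the subtypes a, b, c and d, whose dendrites point in different directions. The series measured single-cell transcriptomes of T4/T5 neurons at 24, 36, 48, 60 and 72 h APF (hours after puparium formation), with 2 biological replicates per stage and 10 libraries in all, to find genes that differ between the subtypes while dendrites grow. All groups were otherwise alike: pupae carried *SS00324-splitGal4* (*R59E08-AD*; *R42F06-DBD*), which marks T4/T5 neurons, recombined with *UAS-mCD8::GFP*, a membrane-bound GFP. Brains of both sexes were pooled per sample, and live GFP-positive cells were sorted, so that a library is a pool of animals.

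Oxidative phosphorylation is the route by which mitochondria make most of the ATP of a neuron. Complexes I and II pass electrons from NADH and succinate to ubiquinone, complex III passes them on to cytochrome c, and complex IV passes them to oxygen, while complexes I, III and IV pump protons across the inner membrane. Complex V, the ATP synthase, lets the protons flow back and makes ATP. Complexes I, III, IV and V are built from subunits of both genomes, and the mitochondrial genome encodes only core subunits.

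The 10 libraries held 72871 barcodes and 12798989 to 62530395 UMIs each (unique molecular identifiers, which count RNA molecules). The members were read in 45854 cells that clustered as T4a to T4d and T5a to T5d by their markers, with a median of 4769 UMIs and 1615 genes per cell and 107 to 1463 cells per class and library. Members and mt: genes had no part in the clustering. The T4/T5 markers *SoxN*, *Sox102F* and *Lim1* together had 2391 to 6846 CPM (counts per 1000000 UMIs of the cells used in a library) in every library. Of the other cell types, *repo*, *Gs2*, *Eaat1* and *alrm* of the 5 glial markers were at 5.52 CPM or less, and the 4 photoreceptor markers summed to 0 to 4.64 CPM. The remaining glial marker, *nrv2*, was at 46.1 to 86.7 CPM up to 48 h and at 185 to 449.9 CPM later, *Pxn* of the 3 blood cell markers was at 83.8 to 569 CPM with *Hml* and *He* at or near 0, and *ple*, of dopaminergic neurons, reached 358 and 217 CPM in the replicates of 48 h. Their part in the results was not tested. Any pair of libraries shared at most 53 barcodes and at most 0.52% of the barcodes of the smaller one. The replicates at 48 and 72 h stood apart from each other in these genes, as described below. Some comparisons of stages are therefore also given without replicate 1 of both stages. The comparisons of classes are not given in this way.

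Nuclear members took a larger share of the RNA at later stages. Their share of all UMIs was 1.41% and 1.46% in the replicates (24 h), 1.54% and 1.83% (36 h), 1.99% and 2.36% (48 h), 1.95% and 1.81% (60 h), and 1.86% and 2.95% (72 h). The mean was 1.44% ± 0.036 at 24 h and 2.40% ± 0.767 at 72 h (SD, n = 2), and every library from 36 h on was above both of 24 h. The order of the means was 24, 36, 60, 48 and 72 h, and the ranges of 36 and 60 h, of 60 and 72 h and of 48 and 72 h overlapped. The mt: members took 3.86% and 4.03% (24 h), 3.87% and 3.35% (36 h), 2.71% and 5.79% (48 h), 4.73% and 4.34% (60 h), and 3.42% and 6.37% (72 h). Here the replicates at 48 and 72 h lay on both sides of the values at 24 h, and no order of the stages could be read. These are cells with at most 10% mt: UMIs. Above this limit were 869 of 4869 and 2034 of 13422 barcodes at 24 h, and 13 of 4819 and 1029 of 9936 at 72 h. Over all barcodes, other cells included, the mt: members took 4.70% and 4.72% (24 h), and 3.39% and 6.75% (72 h).

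**Figure D1:**
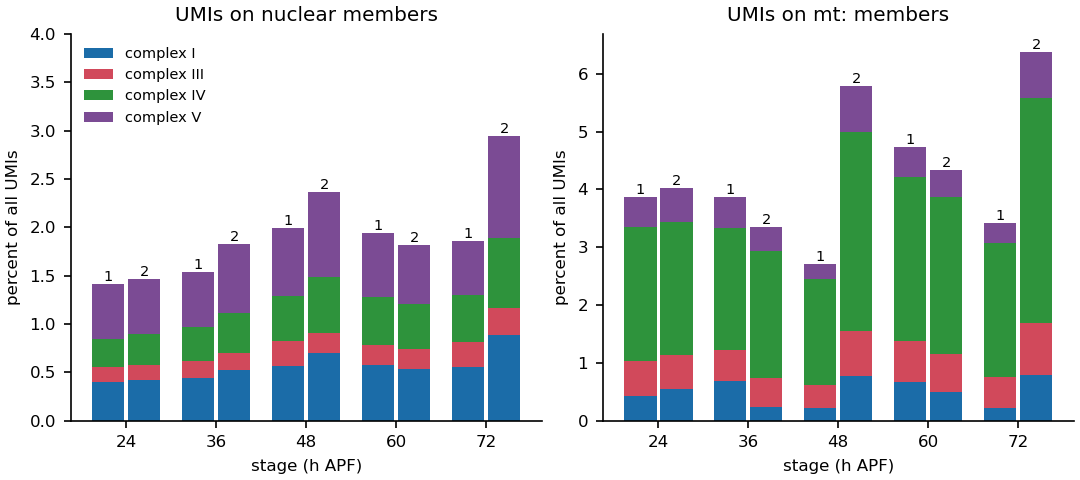
Percent of all UMIs on nuclear (left) and mt: (right) members in each library, stacked by complex. The x axis gives the stage, and the digit on each bar is the replicate. Nuclear shares ran from 1.41% to 2.95% with the lowest bars at 24 h, whereas the mt: bars of 48 and 72 h differed most between replicates.

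The stages were compared over the library sums of 8147 tested genes, with 61 nuclear and all 13 mt: members among them. From 24 to 72 h, 51 of 61 nuclear members rose and 0 fell at an adjusted p under 0.05 (edgeR's quasi-likelihood test), against 29.1% of all tested genes that rose and 29.3% that fell. All 61 had a positive difference, with a median of 1.34 on the log2 scale, beside a median of 0.03 over all tested genes. The risen members were 30 of 34 in complex I, 4 of 7 in complex III, 7 of 8 in complex IV and 10 of 12 in complex V. The count was larger without the first replicates of 48 and 72 h, but this leaves 1 library at each of these stages and drops those with the lower nuclear shares. Scaled by total UMIs alone, the median of all genes moved to -0.53 and that of the nuclear members to 0.81, and 30 nuclear members were called higher and 0 lower, while over all genes 1457 rose and 3554 fell in place of 2371 and 2385. The cytoplasmic ribosomal protein genes, which took 154439 and 173637 CPM at 24 h and 53907 and 86574 CPM at 72 h, fell in 43 of 85 tested cases and rose in 1, and heat shock genes took 4.67% and 3.61% of UMIs at 24 h and 0.807% and 0.950% at 72 h. Their part in the result was not tested. Leaving out replicate 1 of 24 h gave 32 nuclear members higher, the lowest count, and leaving out replicate 2 of 72 h gave 42 higher and 2 lower.

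**Figure D2:**
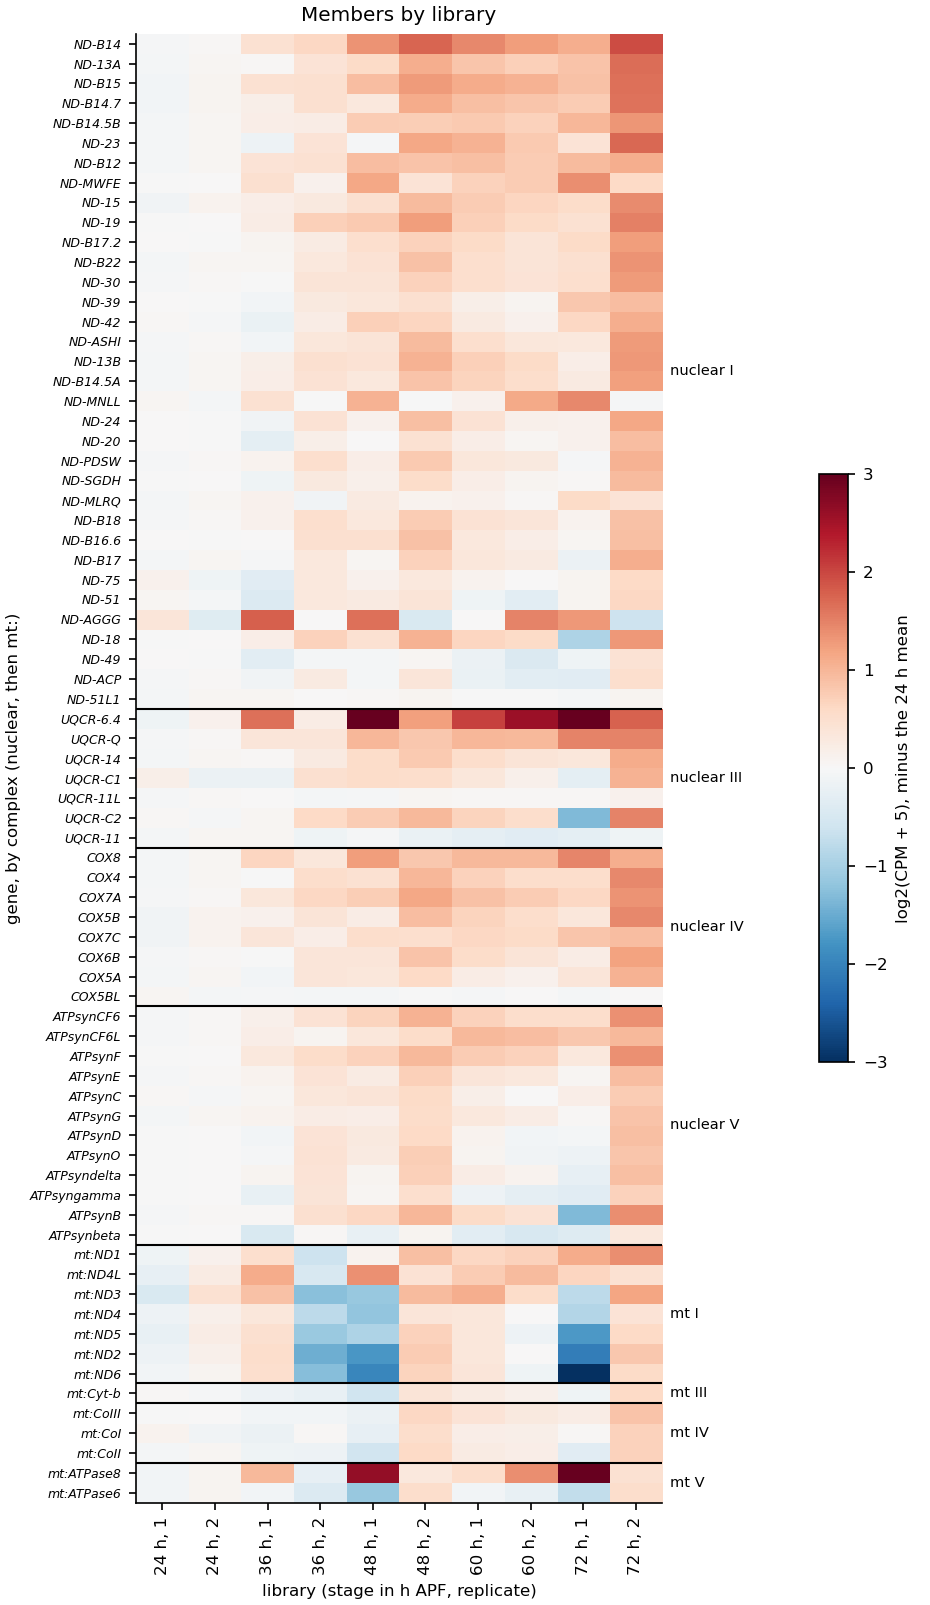
Level of each tested member in each library, as log2(CPM + 5) minus the mean of the 24 h libraries, with nuclear members above and mt: members below, ordered by complex. The colour scale ends at -3 and 3. Most nuclear members were red from 48 h on, and in replicate 1 of 72 h *UQCR-6.4* and *mt:ATPase8* lay past the upper end of the scale and *mt:ND6* past the lower end, as *UQCR-6.4* did past the upper end in replicate 1 of 48 h.

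In complex I, whose accessory subunits surround the electron-carrying core, the largest rises among called members at 20 CPM or more were those of *ND-B14*, *ND-13A* and *ND-B15*, all accessory subunits by their mammalian counterparts. *ND-B14* had 88.8 and 94.2 CPM in the replicates (24 h), 128 and 143 (36 h), 242 and 316 (48 h), 258 and 226 (60 h), and 200.3 and 369 (72 h). All libraries from 48 h on were above those of 24 and 36 h, and the difference from 24 to 72 h was 2.18 ± 0.25 (log2, SE; edgeR, adjusted p = 0.000125). *ND-13A* had 69.4 and 76.2 CPM (24 h), 75.2 and 98.0 (36 h), 111 and 161 (48 h), 134 and 122 (60 h), and 136 and 243 (72 h). Its groups at 24 and 72 h did not overlap, and it rose by 1.92 ± 0.27 (adjusted p = 0.00037). *ND-B15* had 90.7 and 102 CPM (24 h), 135 and 138 (36 h), 187 and 239 (48 h), 214 and 203 (60 h), and 181 and 312 (72 h). It too had every later library above 24 h, with a rise of 1.89 ± 0.23 (adjusted p = 0.000178).

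The nuclear-encoded core subunits of complex I hold the flavin and the iron-sulfur clusters or bind ubiquinone, and all 7 (*ND-75*, *ND-51*, *ND-24*, *ND-49*, *ND-30*, *ND-20* and *ND-23*) were called higher. *ND-23* went from 65.1 and 71.4 CPM at 24 h to 92.9 and 235 CPM at 72 h and rose by 1.79 ± 0.46 (edgeR, adjusted p = 0.01), and *ND-30* rose by 1.52 ± 0.24 (adjusted p = 0.000733). At the lower end, *ND-49* had 143 and 139.8 CPM at 24 h and 128 and 192 CPM at 72 h, which overlap, with a difference of 0.73 ± 0.18 (adjusted p = 0.00779). *ND-75*, *ND-B17*, *ND-PDSW* and *ND-ACP*, the mitochondrial acyl carrier protein, also overlapped between 24 and 72 h in CPM, and their called differences were 0.94, 1.13, 1.14 and 0.68. The complex I members that did not pass were *ND-18*, *ND-AGGG*, *ND-MNLL* and *ND-51L1*, with differences of 1.10, 1.27, 4.54 and 0.72 and SEs of 0.55, 1.02, 2.09 and 0.61.

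In complex III, *UQCR-Q*, an accessory subunit, changed the most evenly. It had 192 and 202 CPM (24 h), 254 and 256 (36 h), 396 and 349 (48 h), 396 and 389 (60 h), and 562 and 561 (72 h). Replicates of each stage lay close together, and the rise from 24 to 72 h was 2.08 ± 0.17 (edgeR, adjusted p = 1.79e-05). *UQCR-14*, the counterpart of the ubiquinone-binding subunit of mammals, had 269 and 293 CPM at 24 h and 355 and 612 CPM at 72 h, a rise of 1.32 ± 0.22 (adjusted p = 0.00107). *UQCR-6.4*, a small accessory subunit, had 46.2 and 55.2 CPM (24 h), 169.9 and 59.3 (36 h), 583 and 125 (48 h), 226 and 325 (60 h), and 996 and 185 (72 h). Its level rose by 4.17 ± 1.03 (adjusted p = 0.00807) and was above 24 h in every later library, but replicates of 48 and 72 h differed several-fold, and without their first replicates the rise was 2.33. It was not called when either library of 24 h was left out, with 3.98 and 4.34. On the annotation *UQCR-6.4* lies over an exon of *POSH* and *ND-B14* over one of *CG12942*, each on the other strand. *UQCR-11*, the counterpart of the hinge protein, was the nuclear member over 1 CPM whose mean CPM was lower at the last stage than at the first, with 644 and 688 CPM (24 h) and 545 and 606 CPM (72 h). After scaling its difference was 0.35 ± 0.17 (adjusted p = 0.108), so that its direction depended on the scaling, and it was not called. The core protein *UQCR-C2* had 173 and 164 CPM at 24 h and 64.2 and 481 CPM at 72 h and was not called, with a difference of 1.19 ± 0.65.

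In complex IV, cytochrome c oxidase, *COX8*, *COX4* and *COX7A* had the largest rises, all accessory subunits around the catalytic core that the mitochondrial genome encodes. *COX8* had 325 and 355 CPM (24 h), 534 and 434 (36 h), 821 and 598 (48 h), 674 and 674 (60 h), and 953 and 724 (72 h). Each later library was above 24 h, and the rise was 1.88 ± 0.26 (edgeR, adjusted p = 0.000415). *COX4* went from 425 and 462 CPM at 24 h to 643 and 1214 CPM at 72 h, a rise of 1.60 ± 0.29 (adjusted p = 0.00177). *COX7A* had 658 and 700.0 CPM (24 h), 858 and 1046 (36 h), 1135 and 1533 (48 h), 1258 and 1156 (60 h), and 1048 and 1732 (72 h). All later libraries were above 24 h, with a rise of 1.58 ± 0.23 (adjusted p = 0.000554). The other called members, *COX5A*, *COX5B*, *COX6B* and *COX7C*, rose by 1.29 to 1.54, and *COX5BL* was at 0.183 to 0.636 CPM and did not pass.

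In complex V, *ATPsynCF6*, a part of the stalk that holds the catalytic head in place, had 307 and 326 CPM (24 h), 352 and 429 (36 h), 505 and 656 (48 h), 512 and 456 (60 h), and 458 and 828 (72 h). No library of 36 to 72 h reached down to 24 h, and the rise was 1.56 ± 0.25 (edgeR, adjusted p = 0.000771). *ATPsynF* and *ATPsynE*, small membrane subunits, rose by 1.48 ± 0.27 (adjusted p = 0.00177) and 1.11 ± 0.25 (adjusted p = 0.00547). *ATPsynF* had 423 and 436 CPM (24 h) and 535 and 1117 CPM (72 h), and *ATPsynE* had 325 and 339 CPM (24 h) and 348 and 639.7 CPM (72 h), so that neither overlapped between these stages. *ATPsynE* was not called without replicate 1 of 24 h, with 1.02, or with total UMIs as the only scaling, with 0.57. *ATPsynC*, the subunit of the turning ring, rose by 1.07 ± 0.19 (adjusted p = 0.00141), from 1631 and 1565 CPM to 1845 and 2731 CPM. The catalytic subunit *ATPsynbeta* had 739 and 751 CPM at 24 h and 572 and 929.8 CPM at 72 h, which overlap, and did not pass with 0.55 ± 0.23 (adjusted p = 0.0642). *ATPsynB* of the outer stalk did not pass either, with 1.09 ± 0.63. *ATPsyngamma* of the central stalk passed by little, with 0.80 ± 0.30 (adjusted p = 0.0485), and its 366 and 374 CPM at 24 h lay between its 291 and 598 CPM at 72 h.

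The mt: members were read apart. From 24 to 72 h, 4 of 13 were called higher and 0 lower, a share of higher members near the 29.1% of all tested genes that rose (29.3% fell), with a median difference of 0.82. *mt:CoIII* and *mt:CoI*, core subunits of cytochrome c oxidase, rose by 1.12 ± 0.27 and 0.95 ± 0.27 (edgeR, adjusted p = 0.00754 and 0.016). *mt:CoIII* had 8639 and 8871 CPM (24 h), 8224 and 8273 (36 h), 7771 and 13401 (48 h), 11694 and 10739 (60 h), and 10278 and 15833 (72 h), and its groups at 24 and 72 h did not overlap. *mt:CoI* overlapped in CPM between 24 and 72 h. At 24 h it had 7299 CPM in T4 and 7091 CPM in T5 in replicate 1, and 6338 and 6263 CPM in replicate 2. At 72 h it had 7265 and 6640 CPM in replicate 1, which lie between those of 24 h, and 11170 and 10646 CPM in replicate 2. The lowest differences over the alternatives were 0.58 for *mt:CoIII* and 0.40 for *mt:CoI*. *mt:ND1*, a membrane subunit of complex I, had 245 and 298 CPM (24 h), 384 and 174 (36 h), 291 and 511 (48 h), 415 and 437 (60 h), and 594 and 722 (72 h), a rise of 1.83 ± 0.40 (adjusted p = 0.00445). *mt:ATPase8*, a short subunit of complex V, was called with 4.13 ± 1.40 (adjusted p = 0.0322), but it had 92.1 CPM in replicate 1 of 72 h and 7.79 CPM in replicate 2, and without the first replicates of 48 and 72 h its difference was 1.27 and not called. On the annotation *mt:ATPase8* (3907 to 4068) shares its last few bases with *mt:ATPase6* (4062 to 4736) on the same strand. Likewise *mt:ND4L* (9545 to 9835) shares position 9545 with *mt:ND4* (8207 to 9545). How reads over these bases were counted was not tested.

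Of the other mt: members, *mt:Cyt-b* of complex III, *mt:CoII* of complex IV and *mt:ATPase6*, which forms the proton path of complex V, had differences of 0.82 ± 0.31, 0.80 ± 0.39 and 0.56 ± 0.51 and did not pass. All 3 passed without the first replicates of 48 and 72 h, with 1.06, 1.16 and 0.998. The remaining complex I members *mt:ND2*, *mt:ND3*, *mt:ND4*, *mt:ND4L*, *mt:ND5* and *mt:ND6* had differences of 0.11 to 1.36 with SEs of 0.57 to 1.18. Their replicates lay far apart: *mt:ND6* had 1059.5 and 1201 CPM (24 h), 1605 and 459 (36 h), 287 and 1791 (48 h), 1442 and 1035 (60 h), and 80.2 and 1675 (72 h). The highest library of *mt:ND6* was replicate 2 of 48 h and the lowest replicate 1 of 72 h, and no change over the stages was detectable in these 6 members. Without replicate 1 of 24 h the count of called mt: members was 1, *mt:ND1*, and without replicate 2 of 24 h it was 2.

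Differences between replicates were not alike across members. Over 2-fold differences between replicates on the log2(CPM + 5) scale were found in 0, 2, 4, 2 and 17 of 61 nuclear members at the successive stages, beside 0.0859%, 1.13%, 3.51%, 0.196% and 6.44% of all tested genes. Among the mt: members they were found in 0, 8, 8, 0 and 8 of 13. *UQCR-6.4* and *ND-AGGG*, a small accessory subunit of complex I, moved together here. *ND-AGGG* had 53.9 and 30.3 CPM (24 h), 153 and 41.2 (36 h), 139 and 27.9 (48 h), 40.6 and 122 (60 h), and 106 and 24.4 (72 h). Both were high in replicate 1 of 36, 48 and 72 h and in replicate 2 of 60 h, and *ox*, a complex III subunit outside the naming rule, was too at 36, 48 and 72 h, with 844 and 202 CPM at 72 h. In the opposite direction, *ATPsynB* had 135 and 916 CPM, *UQCR-C2* 64.2 and 481 CPM and *ND-18* 60.4 and 301 CPM in the replicates of 72 h, and replicate 1 was below both libraries of 24 h in each. Across the 61 nuclear members the difference between replicates had a Spearman correlation with transcript length of 0.44, -0.58, -0.12, 0.30 and -0.23 at the successive stages, which describes genes of the same 2 libraries and no independent replicates. The study sequenced with either a shorter or a longer kit, which of them each library received is not given in the sources used here, and its part in these differences was not tested.

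**Figure D3:**
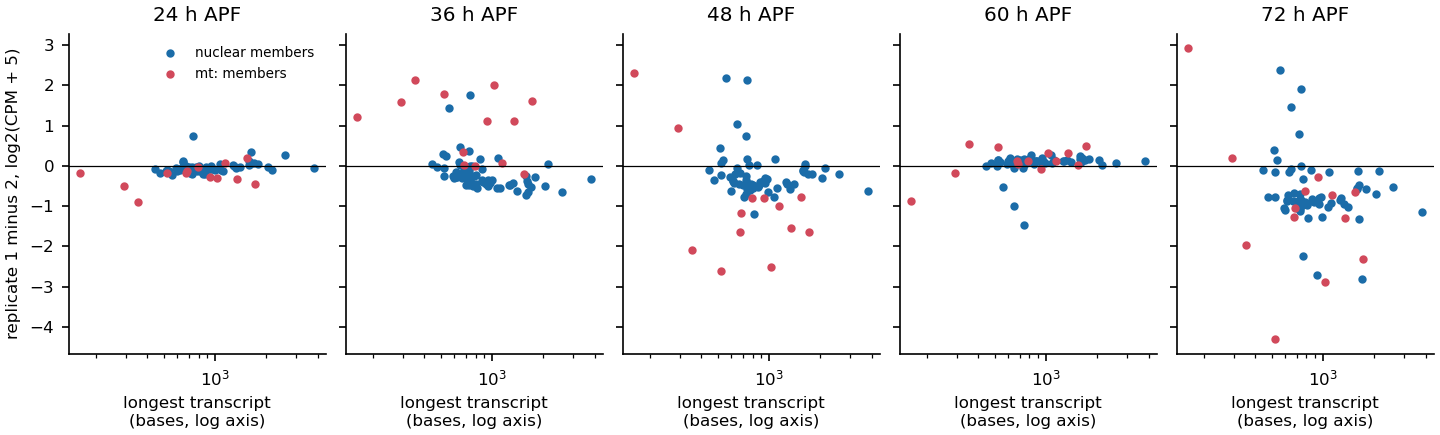
Difference between the replicates of each stage (replicate 1 minus 2, log2(CPM + 5)) against the length of the longest annotated transcript in bases (log axis), with 1 point per tested member. At 24 h no member differed over 2-fold, whereas at 36, 48 and 72 h 8 of the 13 mt: members did.

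Between neighbouring stages the calls were few. From 36 to 48 h, 8 of 61 nuclear members rose and 0 fell (9.30% and 6.68% of all genes, edgeR), from 60 to 72 h 4 rose and 0 fell (5.14% and 4.25%), and no mt: member passed. *UQCR-Q*, *ND-42* and *ND-B14.5B* were called in both steps, with 0.77, 0.90 and 0.77 in the first and 0.67, 0.85 and 0.59 in the second. From 24 to 36 h edgeR called 0 nuclear members in either direction (3.25% of all genes rose and 1.29% fell), with 6 of them at an unadjusted p under 0.05 and a median of 0.27. From 48 to 60 h 1 rose, *ATPsynCF6L* with 1.41 ± 0.41 (adjusted p = 0.0469), and 0 fell (9.21% and 9.61%), with a median of -0.01. This call was lost with another seed of the clustering and without replicate 2 of 72 h or either library of 36, 48 or 60 h. The counts of the neighbouring steps were set by single libraries. The counts from 36 to 48 h and from 60 to 72 h were larger without the first replicates of 48 and 72 h. These held the lower nuclear shares of their stages (1.99% and 1.86%, against 2.36% and 2.95%), so that more risen members were built into that choice. It also leaves 1 library at 48 h and 1 at 72 h, and the share of all genes called is not set beside it. With 1 library left out at a time, the count from 36 to 48 h was lowest without replicate 1 of 36 h and highest without either library of 72 h. From 60 to 72 h it was lowest without either library of 60 h and highest without replicate 1 of 72 h.

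Genes of the same complexes with other names changed alike. From 24 to 72 h, all 4 tested subunits of complex II, the succinate dehydrogenase, rose, by 0.72 to 1.36 (edgeR). The 3 tested complex III genes outside the naming rule (*Cyt-c1*, the Rieske protein *RFeSP* and *ox*), both of complex IV (*cype* and *levy*) and both of complex V (*blw*, the alpha subunit, and *sun*, the epsilon subunit) rose as well. *Cyt-c-p*, the somatic cytochrome c, had 83.9 and 85.9 CPM (24 h), 102 and 113 (36 h), 256 and 366 (48 h), 476 and 433 (60 h), and 523 and 991 (72 h), and rose by 3.69 (adjusted p = 1.41e-05). All libraries from 48 h on were above the earlier ones. Beside the 29.1% of all genes that rose and 29.3% that fell, of the TCA cycle genes 10 of 12 rose and 1 fell, of the glycolysis genes 6 of 12 rose and 2 fell, and of the mitochondrial ribosomal proteins 27 of 72 rose and 3 fell. Of the genes that copy or transcribe mitochondrial DNA 3 of 10 rose and 3 fell, near the shares of all genes. *mtSSB*, which binds single-stranded mitochondrial DNA, fell from 46.2 and 45.9 CPM at 24 h to 1.2 and 2.0 CPM at 72 h (-4.24, adjusted p = 1.24e-05). Among 5 regulators of mitochondrial genes, *srl*, the fly counterpart of the coactivator PGC-1, fell from 17.9 and 17.0 CPM to 2.64 and 2.69 CPM (-2.15, adjusted p = 9.92e-06), and *ewg*, related to NRF-1, rose by 0.72 (adjusted p = 0.0086).

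Genes named as copies of other members were almost silent. Of 74 nuclear members, 13 were too low to test, most of them genes whose names add L to that of another member, and *ND-20L*, *ND-24L*, *ND-B14.5AL*, *COX6AL* and *ATPsynGL* had 0 UMIs in every library. The others, *COX7AL*, *ATPsynepsilonL*, *ND-49L*, *UQCR-14L*, *ATPsynbetaL*, *COX4L* and *ND-51L2*, had 2 to 26 UMIs in all libraries together. How reads shared by a copy and its parent gene were counted was not tested. *UQCR-11L*, *ND-51L1* and *COX5BL* were tested but stayed under 1 CPM in all libraries. *ND-B8*, an accessory subunit that lies over an exon of *Gs1l* on the other strand, had only 22 UMIs in all. The exception among the L genes was *ATPsynCF6L*, described with the subtypes below.

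T4 and T5 were compared within libraries, over 80 sums of 8 classes in 10 libraries with library as a block, on 7148 genes with 58 nuclear and 13 mt: members. The differences were small. Their p-values rest on how far the classes disagreed between the 2 libraries of a stage, pooled over the stages. The classes of a library enter as separate sums, although each stage has only 2 libraries, so that the p-values do not measure the spread between animals. At 24 h the nuclear members leaned to T4, with 18 of 58 higher and 0 lower in T4 (7.68% and 5.46% of all genes, edgeR). At 60 h they leaned to T5, with 2 higher and 43 lower in T4 (16.5% and 18.6%), a median difference of -0.16 (log2) and 49 of 58 lower in T4 in both libraries, beside 45.0% of all genes. At 36 h 5 were higher and 0 lower (6.98% and 4.25%). The counts were 10 and 5 at 48 h (15.8% and 13.6%) and 16 and 10 at 72 h (16.9% and 20.6%). The ratio of the nuclear share in T4 to that in T5 was 1.06 and 1.03 (24 h), 1.02 and 1.02 (36 h), 1.06 and 0.994 (48 h), 0.925 and 0.910 (60 h), and 1.02 and 1.04 (72 h). Both libraries of 60 h had the lowest ratios, and replicate 2 of 48 h was the other one below 1. In the mean of the stages 14 members were higher and 19 lower in T4 (18.8% and 23.4%), and without replicate 2 of 48 h 9 were lower. Leaving out either library of 24 h gave 6 higher at 24 h. At 48 h the counts were 5 higher and 10 lower without replicate 1 of 48 h and 0 lower without replicate 2, and at 72 h 3 lower without replicate 1 of 72 h and 9 higher without replicate 2.

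At 60 h the lower members in T4 were 23 of 33 in complex I, 6 of 6 in complex III, 5 of 7 in complex IV and 9 of 12 in complex V. *ND-B14* had 228 CPM in T4 and 287 CPM in T5 in replicate 1 and 195 and 251 CPM in replicate 2, a difference of -0.34 ± 0.04 (edgeR, adjusted p = 3.84e-13). *ATPsynB* had 467 and 566 CPM and 417 and 518 CPM in the same order, a difference of -0.28 ± 0.03 (adjusted p = 1.65e-15). At 24 h *ND-B14* was higher in T4, with 93.7 and 81.9 CPM in replicate 1 and 96.3 and 89.5 CPM in replicate 2. The change of T4 minus T5 from 24-48 h to 60-72 h was tested itself: it was negative in 39 of 58 nuclear members and positive in 1 (17.9% and 11.4% of all genes), with a median of -0.12. In a fit without the library block the 43 lower members of 60 h became 6 and the 39 became 3, and with a 1.5-fold minimum 0 were called. At 60 h glycolysis genes went the other way, with 9 of 11 higher in T4 and 1 lower, while 6 of 12 TCA cycle genes were lower and 0 higher. The mean of median UMIs per class in T4 was 0.960 and 0.953 of that in T5 at 60 h and 1.07 and 1.09 of it at 24 h, and the share of heat shock UMIs in T4 was 0.710 to 0.979 of that in T5 over all libraries. The part of depth and of heat shock genes in the differences was not tested.

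*COX7A* was higher in T4 at every stage, and it and *ND-MWFE*, an accessory subunit of complex I with a difference of 0.12, were the nuclear members called higher in T4 at 60 h. It lies on chromosome arm 3R (8339944 to 8341043, minus strand, annotation BDGP6.54). Its CPM in T4 and T5 were 714 and 579 in replicate 1 and 739 and 617 in replicate 2 (24 h), 963 and 745 and 1163 and 881 (36 h), 1339 and 952 and 1752 and 1314 (48 h), 1484 and 1082 and 1365 and 995 (60 h), and 1223 and 887 and 2013 and 1512 (72 h). T4 was above T5 in 10 of 10 libraries, by 0.28, 0.40, 0.45, 0.47 and 0.43 at the 5 stages, and by 0.41 ± 0.01 in their mean (edgeR, adjusted p = 6.97e-51). The mean difference of 60 and 72 h was above that of 24 to 48 h by 0.07 ± 0.02 (adjusted p = 0.00122), with the lowest value at 24 h and values from 48 h on close to each other. *ND-15* and *COX6B*, accessory subunits of complexes I and IV, were also higher in T4 in the mean of the stages, by 0.16 ± 0.02 and 0.09 ± 0.01, and most at 72 h, where *ND-15* had 236 CPM in T4 and 195 CPM in T5 in replicate 1 and 447 and 361 CPM in replicate 2. On the annotation *ND-15* shares exon bases with *CG3436*, *COX6B* with *CG18809* and *ND-MWFE* with *Nrk*, each on the same strand. The part of these neighbours in the counts was not tested. *UQCR-11* and *ATPsynbeta* were lower in T4, by 0.09 and 0.10 in the mean, and at 60 h *ATPsynbeta* had 549 and 644 CPM in replicate 1 and 476 and 587 CPM in replicate 2.

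The mt: members were higher in T4 at 72 h, with 10 of 13 called and all 13 positive, beside 16.9% of all genes higher and 20.6% lower. *mt:Cyt-b* had 5808 CPM in T4 and 5071 CPM in T5 in replicate 1 and 9306 and 8688 CPM in replicate 2, a difference of 0.13 ± 0.02 (edgeR, adjusted p = 1.13e-10). The ratio of the mt: share in T4 to that in T5 was 1.11 and 1.05 at 72 h and between 0.995 and 1.02 at the other stages. The change from 24-48 h to 60-72 h was positive in 4 of 13 (*mt:CoIII*, *mt:Cyt-b*, *mt:ND1* and *mt:ND3*) and negative in 0 (11.4% and 17.9% of all genes). In cells with at most 5% mt: UMIs the count at 72 h was 3 of 13. This limit acts on the compared quantity itself and kept 90.8% of the cells of replicate 1 and 9.62% of those of replicate 2. It therefore cannot show whether the difference holds. Without the library block the count at 72 h was 0.

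**Figure D4:**
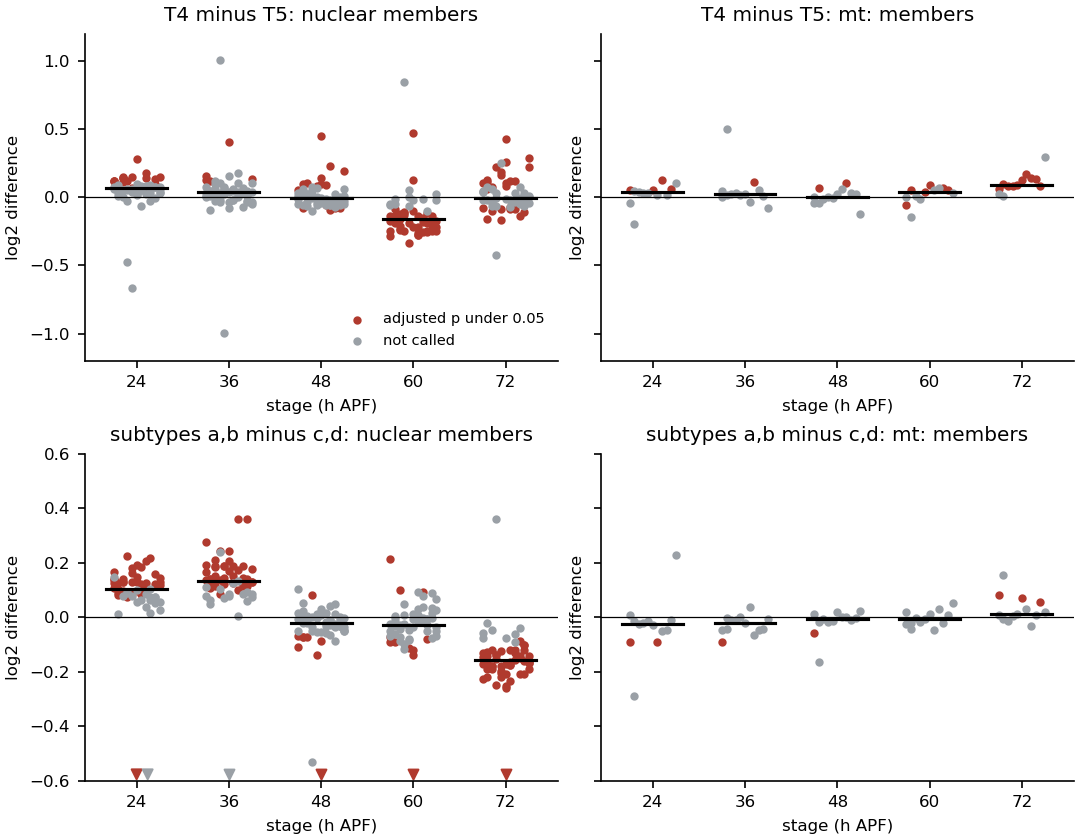
Differences of T4 minus T5 (top) and of subtypes a,b minus c,d (bottom) within libraries, by stage, for nuclear (left) and mt: (right) members. Each point is a member, black bars are medians, red points have an adjusted p under 0.05, and triangles stand for points beyond the axis, among them *ATPsynCF6L*. The nuclear median of T4 minus T5 was -0.16 at 60 h, and that of a,b minus c,d went from 0.13 at 36 h to -0.16 at 72 h.

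The nuclear members changed sides between the subtype pairs a,b and c,d. At 24 h 36 of 58 were higher in a,b and 1 lower (9.61% and 7.86% of all genes, edgeR), and at 36 h 40 were higher and 0 lower (9.63% and 7.58%), with 54 higher in both libraries beside 34.5% of all genes. At 48 h 1 was higher and 8 lower (12.4% and 12.9%), and at 60 h 3 were higher and 8 lower (11.7% and 10.3%). At 72 h 0 were higher and 49 lower (12.3% and 10.8%), with a median of -0.16 and 57 of 58 lower in both libraries beside 42.1% of all genes. The ratio of the nuclear share in a,b to that in c,d was 1.09 and 1.10 (24 h), 1.11 and 1.11 (36 h), 0.954 and 0.973 (48 h), 0.946 and 0.965 (60 h), and 0.859 and 0.863 (72 h). The libraries of 24 and 36 h were all above 1, and all later ones were below. In the mean of the stages 10 members were higher and 3 lower (16.8% and 13.6%). Without replicate 1 of 60 h 2 were lower at 60 h, and without replicate 2 of 48 h 3 were lower at 48 h, where another seed of the clustering gave 5.

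**Figure D5:**
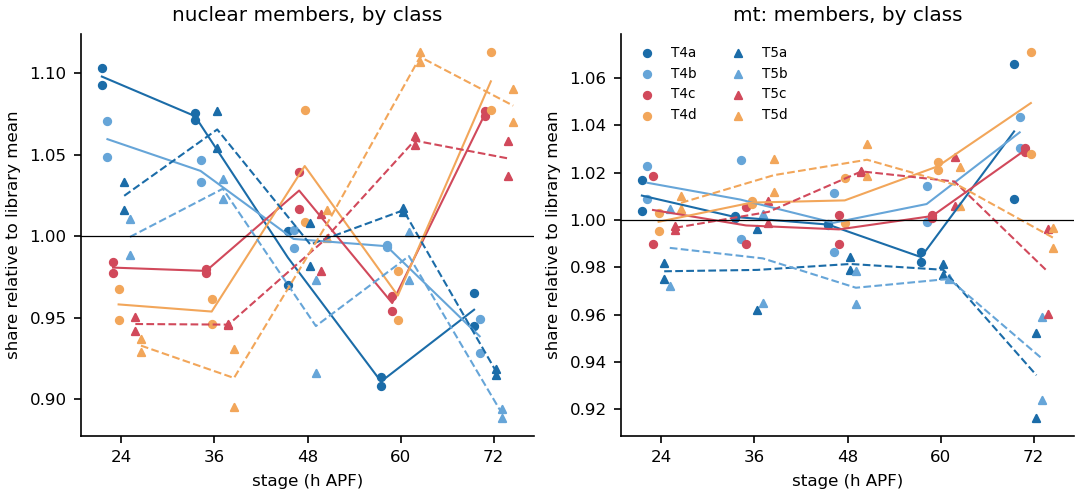
Share of UMIs on nuclear (left) and mt: (right) members in each T4/T5 subtype, divided by the mean of the 8 classes of its library. Points are libraries, and lines join the means of the 2 replicates. In the left panel T4a was highest at 24 h with 1.10 and T5b lowest at 72 h with 0.891.

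All complexes took part: at 72 h 25 of 33 members of complex I, 5 of 6 of complex III, 7 of 7 of complex IV and 12 of 12 of complex V were lower in a,b. *ATPsynF* had 444 CPM in a,b and 396 CPM in c,d in replicate 1 and 459 and 404 CPM in replicate 2 at 24 h, and 492 and 594 CPM and 1042 and 1194 CPM at 72 h. It was higher in a,b by 0.15 ± 0.02 at 24 h and lower by 0.17 at 72 h (edgeR, adjusted p = 4.94e-07 and 2.65e-09). *ND-B15* and *UQCR-6.4* had the largest positive differences at 36 h, both 0.36, and *ND-B15* had 145 and 123 CPM in replicate 1 and 156 and 117 CPM in replicate 2 (SE 0.05, adjusted p = 4.35e-10). *ND-B14* was higher in a,b by 0.23 ± 0.04 and 0.24 ± 0.05 at 24 and 36 h and lower at 72 h, where it had 190.4 and 214 CPM and 343 and 395 CPM (-0.14 ± 0.03, adjusted p = 0.00046). *COX7A* had 1608 and 1917 CPM in replicate 2 of 72 h and turned from 0.18 at 24 h to -0.20 at 72 h. *ND-PDSW* had the lowest difference at 72 h among the members over 20 CPM (-0.26 ± 0.03, adjusted p = 1.77e-11). *UQCR-11* and *ND-MLRQ* were higher in a,b in the mean of the stages (0.05 ± 0.01 and 0.06 ± 0.01) and at 24, 36 and 60 h, and did not pass at 72 h.

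The change of a,b minus c,d from 24-48 h to 60-72 h was negative in 49 of 58 nuclear members and positive in 0 (10.5% and 9.49% of all genes), with a median of -0.16. Of the mt: members 3 of 13 changed upward and 0 downward, beside 9.49% and 10.5% of all genes. *mt:ATPase6* was lower in a,b at 24 h, with 5041 and 5418 CPM in replicate 1 and 5813 and 5941 CPM in replicate 2, and had 3339 and 3245 CPM and 8017 and 7997 CPM at 72 h. At 72 h its CPM lay close together, and the fit, which scales the class sums, gave a larger difference of 0.08 ± 0.02 (edgeR, adjusted p = 0.000598). The ratio of the mt: share in a,b to that in c,d stayed between 0.964 and 1.006 in all libraries. Without the library block the nuclear counts were 1 at 24 h, 1 at 36 h, 3 at 72 h and 4 for the change, and with a 1.5-fold minimum *ATPsynCF6L* alone passed at 72 h. Leaving out replicate 2 of 72 h gave 25 lower at 72 h, leaving out replicate 2 of 36 h gave 18 higher at 36 h, and leaving out replicate 1 or 2 of 24 h gave 18 or 16 higher at 24 h.

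Other gene groups moved with the subtype pairs as well. The change of a,b minus c,d was negative in 3 of 4 complex II genes, 8 of 12 TCA cycle genes and 18 of 72 mitochondrial ribosomal protein genes, with none positive in these lists. It was positive in 76 of 84 cytoplasmic ribosomal protein genes and 6 of 13 heat shock genes, and negative in 1 and 3. The share of UMIs on cytoplasmic ribosomal proteins in a,b was 0.950 and 0.950 of that in c,d at 24 h and 0.997 and 1.02 of it at 72 h. For heat shock genes these ratios were 0.952 and 0.903 at 24 h and 1.15 and 1.28 at 72 h. Median UMIs per class in a,b were 0.983 to 1.04 of those in c,d. The part of the ribosomal and heat shock genes in the differences of the members was not tested.

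Within the pairs, few members passed in the mean of the stages, and directions differed between stages. At 24, 36, 48 and 72 h, 28, 27, 29 and 34 of 58 nuclear members were higher in a in both libraries, and 3, 7, 4 and 4 lower. At 60 h 3 were higher and 34 lower. In c, 24 and 31 were higher and 4 and 6 lower at 24 and 36 h. Later 10, 4 and 4 were higher and 24, 31 and 31 lower. Over all genes each direction held 24.7% to 34.3%. Single stages were not tested within the pairs. In the mean of the stages 3 of 58 nuclear members were higher in a than in b and 0 lower (3.57% and 4.11% of all genes, edgeR), and all 3 belonged to complex V: *ATPsynF*, *ATPsynC* and *ATPsynCF6* with 0.06, 0.04 and 0.06. *ATPsynF* had 460.2 CPM in a and 427 CPM in b in replicate 1 of 24 h and 1042 and 1041 CPM in replicate 2 of 72 h, and b was above a at 60 h in both libraries. The change of a minus b after 48 h was called in 1 nuclear member, *ATPsynC*, with -0.08, and in 0 upward (2.14% and 2.22% of all genes). Of the next members by p, *ATPsyndelta*, *mt:Cyt-b* and *ND-39* had 0.06, -0.03 and 0.07 and did not pass. Between c and d, 2 nuclear and 2 mt: members were lower in c and 0 higher (3.05% and 2.98%), namely *ND-PDSW* (-0.07), *ND-B22* (-0.06), *mt:CoIII* (-0.03) and *mt:CoI* (-0.03). *COX7C* and *COX5B*, the next by p, had -0.05 each and did not pass. At 60 h *ND-PDSW* had 272 CPM in c and 295 CPM in d in replicate 1 and 252 and 278 CPM in replicate 2. The change of c minus d after 48 h was called in 1 nuclear member, *COX5A*, with -0.13 (adjusted p = 0.0447), and in 0 upward (1.32% and 1.94% of all genes). Without the library block 0 nuclear members differed within either pair, and with total UMIs as the only scaling 1 was higher in a and 0 lower in c. Leaving out 1 library at a time gave 0 to 3 nuclear members lower in c: 0 without replicate 2 of 36 h or of 72 h, and 1 without replicate 2 of 24 h, replicate 1 of 36 h, replicate 2 of 60 h or replicate 1 of 72 h. The mt: count in c minus d was 0 without replicate 2 of 24 h, replicate 1 of 60 h or replicate 1 of 72 h, 2 without replicate 1 of 36 or 48 h, and 1 without any other library or with another seed of the clustering. Leaving out 1 library gave 0 to 6 nuclear members higher in a: 0 without replicate 2 of 24 h, 1 without replicate 1 of 24 h or replicate 2 of 36 h, and 6 without replicate 2 of 72 h.

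*ATPsynCF6L*, named after the stalk subunit *ATPsynCF6*, was found in c,d alone at most stages. Its CPM in c,d were 0.0853 and 0.646 in the replicates (24 h), 1.86 and 1.09 (36 h), 3.79 and 6.0 (48 h), 11.2 and 10.98 (60 h), and 8.91 and 10.2 (72 h). In a,b it was listed at 0 in 7 of 10 libraries and at 0.594 to 0.604 CPM in the others, replicate 1 of 60 h and both of 72 h. From 36 h on the groups did not overlap within a stage. In replicate 1 of 24 h both groups were under the level of 3 UMIs, so that they were not told apart there. *ATPsynCF6L* was lower in a,b at 48, 60 and 72 h (edgeR, adjusted p = 6.31e-16, 1.49e-17 and 8.62e-16). At 24 h it was the 1 nuclear member called lower in a,b, from a level under 1 CPM. At 36 h the fit with 0 in a,b gave no usable error, and no fold is given against groups at 0. In the sums of whole libraries it rose from 0.0579 and 0.266 CPM at 24 h, the first of them under the level of 3 UMIs, to 4.08 and 5.10 CPM at 72 h. The gene lies on chromosome arm 3L (5011444 to 5012133, minus strand, annotation BDGP6.54), inside an intron of *Con* (4936758 to 5079033, minus strand), a cell surface gene listed among the markers of c,d. *Con* had 169.6 to 2900.2 CPM in c,d and 5.13 to 228 CPM in a,b, and c,d was above a,b in every library. Whether UMIs from *Con* transcripts enter the count of *ATPsynCF6L* was not tested.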

How the data were processed

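T4/T5 neurons were profiled with 10x v3 libraries. Per the labels and the study's methods, the authors aligned and counted reads with Cell Ranger 3 and deposited raw UMI counts per gene and barcode without normalisation. Of the 72871 barcodes, those with at most 10% mt: and 10% Hsp UMIs and at least 200 UMIs (62584) were kept for the present tables, with limits taken from the study's methods. Scrublet scores (scanpy 1.11.5) marked doublets at 0.8% per 1000 barcodes, and the 1933 marked cells in named classes were left out. Clustering used Seurat 5.3.0 per stage (2000 variable genes without members, mt: and Hsp genes, 15 components, resolution 0.8), and clusters were named from markers. UMIs were summed per library and per library and class. Sums were tested with edgeR 4.0.16 (R 4.3.3; quasi-likelihood, TMM, filterByExpr) with Benjamini-Hochberg adjustment over all tested genes and called at an adjusted p under 0.05, after tests on simulated data. The authors' annotation release differs from the one used for positions and lengths (BDGP6.54, all 87 members matched by gene ID), and it was used only for these.

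Replicates are separate biological samples. Total UMIs per library were 12798989 to 62530395. Each SE is the absolute log2 difference divided by the square root of the F statistic of its test, and counting error is included. Values under 3 UMIs per library were read as not detectable. Members and gene lists were chosen with earlier results of these data known. Named genes were, per complex, the 3 called nuclear members with the largest rise from 24 to 72 h at 20 CPM or more, every mt: member and, for the class comparisons, the 6 members with the smallest adjusted p in the mean of the stages; other genes were named after their values were seen. Alternatives were DESeq2 1.42.0, scaling by totals, no filter on low counts, mt: genes left out, cells up to 5% mt: UMIs, a 1.5-fold minimum, all barcodes, equal class weights, blocks by replicate or none, each library left out and, chosen after seeing the data, replicate 1 of 48 and 72 h left out and another seed of the clustering. Positions relative to other genes came from the same annotation. No sequences were used.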

Additional observations from a re-analysis of the deposited data

Results flagged for a closer look

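The difference between T4 and T5 changed between 24-48 h and 60-72 h APF in 40 of 58 nuclear members, in 39 of them towards T5 and in *COX7A* towards T4, and in 4 of 13 mt: members, all towards T4, beside 17.9% of all genes with a change towards T5 and 11.4% towards T4. The difference between subtypes a,b and c,d changed in 49 of 58 nuclear members, all towards c,d, and in 3 of 13 mt: members, all towards a,b, beside 10.5% of all genes towards c,d and 9.49% towards a,b. Each is a test of the difference between stages itself (edgeR's quasi-likelihood test with library as a block, adjusted p under 0.05). The later value is a mean of 60 and 72 h. The ratio of the nuclear share in T4 to that in T5 was 0.925 and 0.910 at 60 h, but 1.02 and 1.04 at 72 h. The nuclear lean to T5 was thus seen at 60 h and not in the shares of 72 h. No group held enough libraries to test for a library far from its group.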

How the results depend on the processing

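The counts of members depended most on scaling, on single libraries and on the library block. Scaling by totals alone gave 30 nuclear and 2 mt: members higher from 24 to 72 h, 1 from 36 to 48 h, 1 from 60 to 72 h, 1 for a against b and 0 for c against d. DESeq2 gave 13 from 36 to 48 h and 10 from 60 to 72 h. With no filter on low counts, 1 nuclear member was lower and 8 mt: members higher from 24 to 72 h, 21 nuclear members higher from 36 to 48 h, 1 higher in a than in b, and 0 lower in c than in d. With all barcodes 2 were higher from 60 to 72 h. Without replicate 1 of 48 and 72 h the neighbouring steps gave 43 and 45. Replicate numbers are shared between stages, but deviations of same-numbered libraries correlated by -0.415 to 0.649 over 10 pairs of stages. The correlations were 0.341, 0.396 and 0.649 among 36, 48 and 72 h. Between 60 h and each of these they were -0.302, -0.411 and -0.415. The numbers alone thus do not pair the samples over all stages. A batch shared by libraries of different numbers was not modelled, and its part was not tested. A replicate block gave 52 nuclear and 5 mt: members from 24 to 72 h, 12 from 36 to 48 h and 3 from 60 to 72 h. With no replicate block (no library term) in the comparison of classes, T4 minus T5 gave 1 higher and 2 lower in the mean, 6 lower at 60 h, 3 for the change and 0 mt: at 72 h, a,b minus c,d gave 1, 1, 3 and 4 at 24 h, 36 h, 72 h and for the change, and a minus b and c minus d gave 0. A 1.5-fold minimum left 0 in each of these, with 1 for a,b minus c,d at 72 h. Cells up to 5% mt: UMIs (8.29% to 95.1% of the cells of a library) gave 7 higher for T4 minus T5 in the mean, 3 mt: at 72 h, 24 and 22 for a,b minus c,d at 72 h and the change, 0 for a minus b and 0 for c minus d. Another seed of the clustering, chosen after seeing the data, put 99.1% of 47498 cells in the same class, and every count named in this paragraph was then within 1.5 times its value.

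Leaving out each library in turn gave, for the nuclear members, 32 to 55 higher and 0 to 2 lower from 24 to 72 h, 1 to 21 from 36 to 48 h, 0 to 11 from 60 to 72 h, 9 to 21 lower for T4 minus T5 in the mean, 16 to 41, 18 to 41 and 25 to 52 for a,b minus c,d at 24, 36 and 72 h, 0 to 6 for a minus b and 0 to 3 for c minus d, and 1 to 6 for the mt: members from 24 to 72 h. Of the 12 nuclear genes named by their rise and the 13 mt: members, those with a change of sign from 24 to 72 h under an alternative were mt: members. Scaling by totals gave -0.011 for *mt:ND2*, -0.16 for *mt:ND5*, -0.10 for *mt:ND4* and -0.36 for *mt:ND6*. Cells up to 5% mt: UMIs gave -0.030 for *mt:ND2*, -0.20 for *mt:ND5* and -0.69 for *mt:ND6*, and a change of the mt: share by -0.275 percentage points. This limit acts on the mt: share itself, so that these values cannot tell whether the changes hold. For *mt:ND6* the replicate block gave -0.29 and all barcodes -0.047. Leaving out each library gave -1.49 to 1.27 for *mt:ND2*, -0.093 to 0.998 for *mt:ATPase6*, -0.23 to 1.57 for *mt:ND3*, -1.10 to 1.04 for *mt:ND5*, -0.24 to 0.869 for *mt:ND4* and -3.17 to 1.03 for *mt:ND6*, and a change of the mt: share by -0.529 to 2.43 percentage points. The causes were not tested. Each stage has 2 libraries, so a spread of 1 stage rests on 1 difference, and members under 1 CPM were too shallow to read.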
